A study of Mus musculus with 4 samples.

Results

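NF-kB is a family of dimeric transcription factors, and the genes described here encode its 5 subunits (Nfkb1, Nfkb2, Rel, Rela and Relb) and 5 of its inhibitors and modulators (Nfkbia, Nfkbib, Nfkbie, Bcl3 and Tnfaip3). A probe was taken as one of theirs if its gene name, or the current symbol of its RefSeq transcript, was one of these 10. All 10 genes had a probe, and together they had 14 of the 41174 non-control probes of the array. Nfkb1 had 4 probes, Rela had 2, and each of the others had 1.

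The cells were B16-F10, an established mouse melanoma line that forms pigment, and RNA levels were measured on Agilent 2-colour arrays. On each of 4 arrays, cells given a goat polyclonal antibody against mouse TIM3 (Cy5) were compared with cells given unspecific goat IgG (Cy3), each at 15 ug/ml for 2 h. The 4 biological replicates were passages 14, 16, 18 and 19 of the line, numbered 1 to 4 here. The source name of replicate 1 calls the antibody an agonist, and those of replicates 2 to 4 do not use the word. For replicate 3 the treatment text is not repeated for the Cy5 cells, whose source name gives the antibody. There was no untreated group. All replicates are of a single cell line, so p-values measure the spread between its passages. No array had its dyes exchanged, so the response to the antibody and any difference between Cy5 and Cy3 labelling cannot be told apart. In RNA from whole cultures, fewer cells of a kind and less RNA per cell cannot be told apart either.

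In resting cells, NF-kB dimers are held in the cytoplasm by IkB proteins. Signals from TNF, interleukin-1 or Toll-like receptors activate the IKK kinases, which mark IkB for destruction and free the dimers to enter the nucleus. Several inhibitor genes, among them Nfkbia, Nfkbie and Tnfaip3, are themselves targets of NF-kB and close a feedback loop. In melanoma cells the pathway is known for its part in survival and in chemokine production.

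A probe is a strand of 60 bases, and where it lies in a gene decides which transcripts it reports. The probes below are shown because Nfkb1 gave ratios on both sides of 0 within the gene, Rela gave ratios below 0 at both of its probes, and Nfkbia and Nfkbib are the inhibitors set side by side below. Sequences are as deposited, 5′ to 3′, with nothing capitalised. The first 30 bases are given for Nfkb1 and Rela, and the whole probe for Nfkbia and Nfkbib.
Nfkb1 probe 1: tgaaaatagtattttccccgttttatgcat
Nfkb1 probe 2: attgctgccaaacttatatgagacttagac
Rela probe 1: ctgtgttgatagctcctgcttcggtaggga
Rela probe 2: cagacccaggagtgttcacagacctggcat
Nfkbia: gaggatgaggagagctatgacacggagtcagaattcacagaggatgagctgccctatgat
Nfkbib: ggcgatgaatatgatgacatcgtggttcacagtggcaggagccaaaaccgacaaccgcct

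Coordinates are those of the files (mm7), and the files place no probe in an exon, intron or untranslated region. Nfkb1 probe 1 was designed on the transcript NM_008689 (chr3:135379090-135379151). Nfkb1 probe 2 was designed on the cDNA BC050841 (chr3:135406524-135406583), and probes 3 and 4 on the cDNAs AK048506 (chr3:135405555-135405614) and AK036827 (chr3:135412575-135412634). The Rela probes lie at chr19:5542438-5542497 and chr19:5541942-5542001. The Nfkbia probe covers 496 bases of genome (chr12:53415998-53416493) and the Nfkbib probe 682 (chr7:25693284-25693965), more than the 60 bases of either. Nfkb2 lies at chr19:46208290-46208429, Rel at chr11:23694004-23694064, Relb at chr7:17288747-17288806, Nfkbie at chr17:43692455-43692514, Bcl3 at chr7:17490887-17490946 and Tnfaip3 at chr10:18722874-18722933.

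Between 21151 and 22086 probes per array were well above background in the IgG channel and between 25703 and 28400 in the anti-TIM3 channel. All 10 melanocyte markers were well above background in both channels of every array, Dct, Pmel, Mlana and Tyrp1 among them. By their brightest probes 7 of the 10 were higher after anti-TIM3, against 14.6% of all named genes. Of the 4 other tested probes of these markers 2 were higher and 1 was lower. The lower one was a Sox10 probe at -0.30 (limma, adjusted p = 0.00302), while the brightest Sox10 probe had 0.18. The ratios of Dct, Pmel, Mlana and Tyrp1 were 0.41 to 0.58 here and 0.10 to 0.30 in the deposited ratios, and the brightest 531 tested probes had a median of 0.17. The summed linear intensity of the 10 markers ran from 429074 to 730543 in the IgG channels and from 545632 to 945286 in the anti-TIM3 channels. Of 16 leukocyte markers, 5 were well above background on no array, 10 were tested and 2 were higher, Tyrobp at a log2 ratio of 0.33 and Lck at 0.14. The summed leukocyte intensity ran from 1896 to 4018 in the IgG channels and from 1977 to 4132 in the anti-TIM3 channels. Of 7 fibroblast markers 5 were tested and 2 were higher, of which Col3a1 was not well above background in the IgG channel of any array, and of 6 endothelial markers 1 was tested and was not called. The part of these markers in the NF-kB values was not tested. Havcr2, which encodes TIM3, had a log2 ratio of 0.04 (limma, adjusted p = 0.400).

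The first question was whether transcripts of the NF-kB family differed between antibody and IgG cells. Of the 14 probes, 7 passed limma's test at an adjusted p of 0.05, 4 higher and 3 lower after anti-TIM3. Nfkb1 probe 1, Rel, Nfkbib and Tnfaip3 were higher, and Nfkb1 probe 2 and both Rela probes were lower. Rel entered the test only through the anti-TIM3 channel, since its IgG channel was not well above background on any array, and among the other 13 probes 6 were called, 3 higher and 3 lower. Across the array, 27.8% of the 26545 tested probes passed, 14.2% higher and 13.6% lower. Where probes had to be well above background in both channels of all 4 arrays, 7 of 13 NF-kB probes passed, Nfkbie in place of Rel, against 33.3% of 20593. With 1 probe for each gene, its brightest, 4 of the 10 genes were higher, Rel included, and 1 was lower, against 28% of 14475 named genes called. The median log2 ratio was 0.05 over the 10 genes and 0.01 over all named genes.

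All these differences were small. A log2 ratio of 0 means equal signal, and called NF-kB probes lay between 0.12 and 0.29 from 0. The median distance from 0 was 0.08 over all tested probes and 0.17 over called ones. The test pairs the 2 channels of an array, which hold the same passage. With the channels fitted separately and without that pairing, 0 of the 14 probes were called by limma, against 2.17% of all tested probes. The adjusted p-values of the 14 ran from 0.0982 to 0.998. None of the 14 was called either when each array was centred on its median in place of loess (limma, 0 of 26545 probes). Without replicate 4 the loess fit called 3 of the 14, Nfkb1 probes 1 and 2 and Nfkbib, against 15.9% of all tested probes. The Agilent software's own p-values in the authors' deposited files are given per spot and array. They were under 0.01 for 0 of the 56 values of a probe on an array, and the lowest was 0.0103, at Rela probe 2. The share of all probes under 0.01 is not given here, so whether 0 is unusual is not known. Rela probe 2 and Nfkb1 probe 1 had more spots per array than the other NF-kB probes, so these values do not rank the probes evenly.

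**Figure D1:**
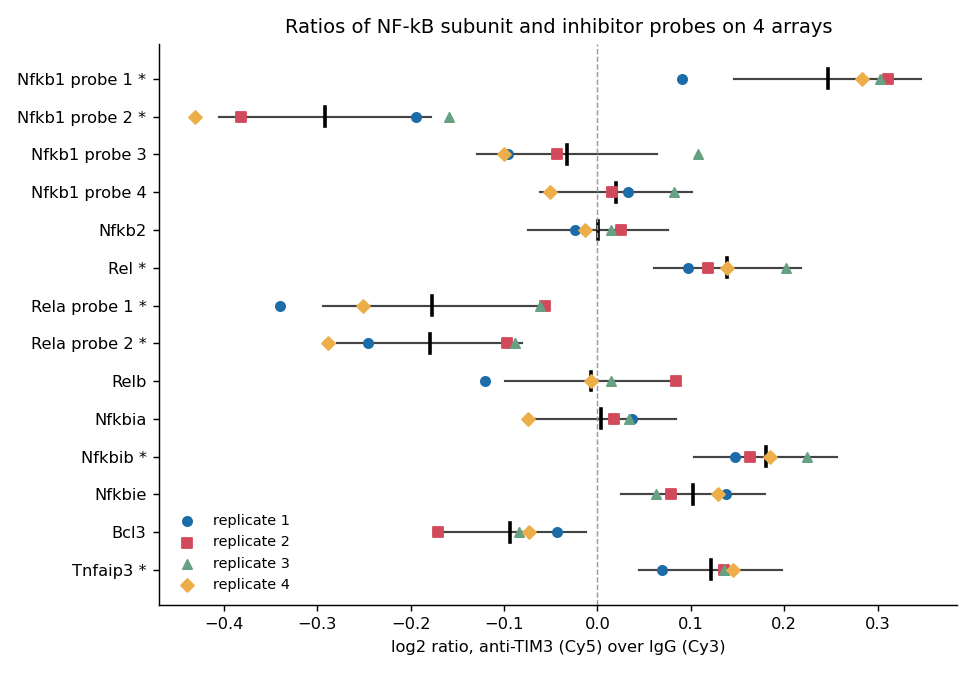
Log2 ratio of anti-TIM3 (Cy5) over IgG (Cy3) at each NF-kB probe, with 1 point for each of the 4 arrays, the mean as a vertical bar and limma's 95% confidence interval as a line; an asterisk marks an adjusted p under 0.05. The widest separation is within 1 gene, between Nfkb1 probe 1 (mean 0.25) and Nfkb1 probe 2 (mean -0.29), and the ratio of Rel has no measured size, since its IgG channel was not well above background.

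Among the subunits, Nfkb1, which encodes p105 and its product p50, gave the largest values, in opposite directions. At probe 1 the deposited processed signals were 2968, 2453, 2440 and 2539 in the IgG channels of replicates 1 to 4. In the anti-TIM3 channels of the same arrays they were 3276, 3050, 3009 and 3112. Every anti-TIM3 signal was above every IgG signal. After background correction and loess the log2 ratios were 0.09, 0.31, 0.30 and 0.28, with a mean of 0.25 ± 0.10 (SD, n = 4; limma, adjusted p = 0.00515), or 1.19-fold. Replicate 1 was the lowest and stood apart from the other 3.

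At Nfkb1 probe 2 the processed signals were 316, 312, 306 and 387 in the IgG channels and 276, 228, 261 and 266 in the anti-TIM3 channels. Here every anti-TIM3 signal was below every IgG signal. The log2 ratios were -0.19, -0.38, -0.16 and -0.43, with a mean of -0.29 ± 0.13 (SD, n = 4; limma, adjusted p = 0.00445), so the signal fell by 18.3%. The other Nfkb1 probes gave values on both sides of 0, with means of -0.03 at probe 3 (adjusted p = 0.591) and 0.02 at probe 4 (adjusted p = 0.708). Probe 1 exceeded probe 2 on every array, by 0.54 ± 0.20 on the log2 scale (exact sign-flip permutation test, two-sided, p = 0.125, the smallest that 4 arrays allow). The 4 probes of this gene therefore gave 1 higher, 1 lower and 2 uncalled values.

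Probe 1 also differs from most probes in its bases. Its GC content was 23.3%, against a median of 43.3% over tested probes, and 46 of its 60 bases are A or T. With trends on intensity and base counts removed, its log2 ratio was 0.15 (limma, adjusted p = 0.0193). Under the same step Nfkb1 probe 2 had -0.33 (limma, adjusted p = 0.00587). Both probes kept their calls without each replicate in turn.

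Nfkb1 probe 1 and Rela probe 2 were printed 10 times on each array, so their error within an array can be seen directly. At Nfkb1 probe 1 the spots had an SD of 0.02 to 0.03 on the log2 scale within an array. In replicate 1 its 9 usable spots ran from 0.05 to 0.15, while the lowest spot of the other arrays was at 0.25. The gap between replicate 1 and the others was thus wider than the spread of the spots. At Rela probe 2 the SD within an array was 0.05 to 0.10. Its replicates 1 and 4 had every usable spot below 0, while replicates 2 and 3 had spots on both sides.

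**Figure D2:**
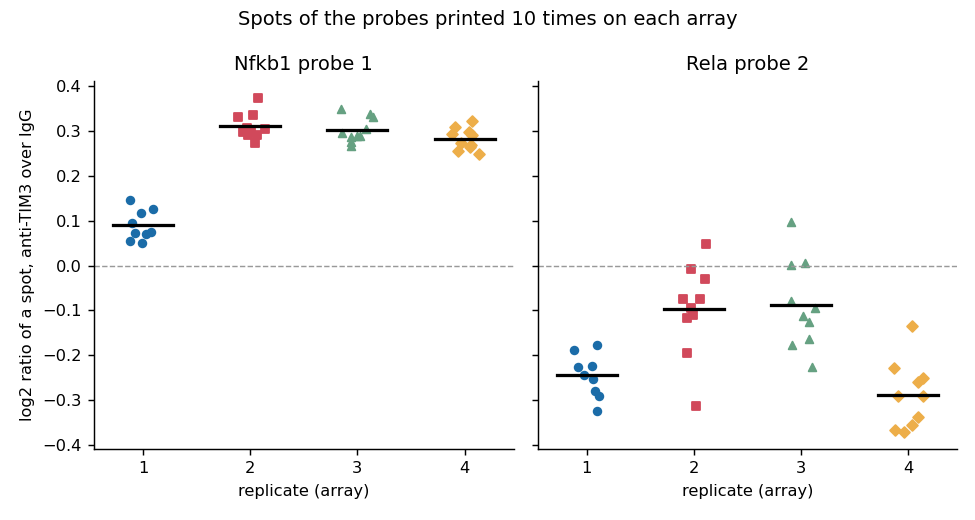
Log2 ratio of each spot of the 2 NF-kB probes printed 10 times, by array, with the array's mean as a bar and outlier spots left out. Spots of Nfkb1 probe 1 in replicate 1 lie between 0.05 and 0.15, below all of its spots on the other arrays, and spots of Rela probe 2 cross 0 in replicates 2 and 3.

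Rela, which encodes p65, the subunit with the main activation domain of the classical dimer, was lower at both of its probes. At probe 1 the processed signals were 2381, 1703, 1976 and 1875 in the IgG channels and 1973, 1675, 1958 and 1604 in the anti-TIM3 channels. Each array had the lower signal in the anti-TIM3 channel, but the ranges of the channels overlapped. The log2 ratios were -0.34, -0.06, -0.06 and -0.25 (mean -0.18 ± 0.14, SD, n = 4; limma, adjusted p = 0.0337). With each array centred on its median in place of loess, the mean of probe 1 turned to 0.13, which was below the median of 0.15 over all tested probes under that scaling.

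Rela probe 2 had log2 ratios of -0.25, -0.10, -0.09 and -0.29 (mean -0.18 ± 0.10, SD, n = 4; limma, adjusted p = 0.0172). The pattern over arrays was that of probe 1, with replicates 1 and 4 lowest. The probes differed by 0.00 ± 0.06, with 3 of 4 differences above 0 (exact sign-flip permutation test, two-sided, p = 1). The likeness in size did not hold in every setting. In the deposited ratios the means were -0.13 at probe 1 and -0.31 at probe 2. With median centring they were 0.13 and -0.09. Without replicate 1 the adjusted p-values were 0.115 for probe 1 and 0.0653 for probe 2, and without replicate 4 they were 0.118 and 0.0721 (limma), so neither call was kept there. The call of probe 1 was also lost in the deposited ratios (limma, adjusted p = 0.166), with a normexp offset of 10 (adjusted p = 0.0631) and with trends on intensity and base counts removed (adjusted p = 0.0564).

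Rel, which encodes c-Rel, a subunit best known from lymphocytes, was close to background. Its probe was well above background in the anti-TIM3 channel of 4 arrays and in the IgG channel of 0. Its processed signals were 28.1, 26.2, 17.1 and 21.7 in the IgG channels and 34.8, 26.7, 22.8 and 29.9 in the anti-TIM3 channels. Each array had the higher signal after anti-TIM3, with overlapping ranges. Because the IgG signals are not well above background, the size of the ratio is not measured and only a bound can be given. Set against the lowest signal that counts as well above background, the mean anti-TIM3 signal was 1.08-fold higher. This bound is on means, takes no account of sampling error and is open to dye bias. The fitted log2 ratio had a 95% confidence interval from 0.06 to 0.22 (limma, adjusted p = 0.0192). Rel entered that test only through the anti-TIM3 channel. Rel had no value under the filter on both channels. The adjusted p-values were 0.0527, 0.0889 and 0.0606 without replicates 2, 3 and 4 and 0.0582 in the deposited ratios (limma), and relative to the all-probe median under median centring the fitted value lay below 0, at -0.10.

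Nfkb2, which encodes p100 and p52 of the alternative pathway, had log2 ratios of -0.02, 0.02, 0.01 and -0.01. The mean was 0.00, with a 95% confidence interval from -0.07 to 0.08 (limma, adjusted p = 0.993). Relb, which encodes the partner of p52, had -0.12, 0.08, 0.01 and -0.01 (limma, adjusted p = 0.912; interval from -0.10 to 0.08). Both genes were well above background in both channels of every array, and in each the arrays split evenly around 0. Between subunits, Nfkb1 probe 1 exceeded Rela probe 1 on all 4 arrays, by 0.42 ± 0.08 (exact sign-flip permutation test, p = 0.125, 0.15 adjusted over the 6 pairs of probes compared). The order turns with the other called Nfkb1 probe, since the mean of probe 2 (-0.29) lay below those of both Rela probes (-0.18).

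**Figure D3:**
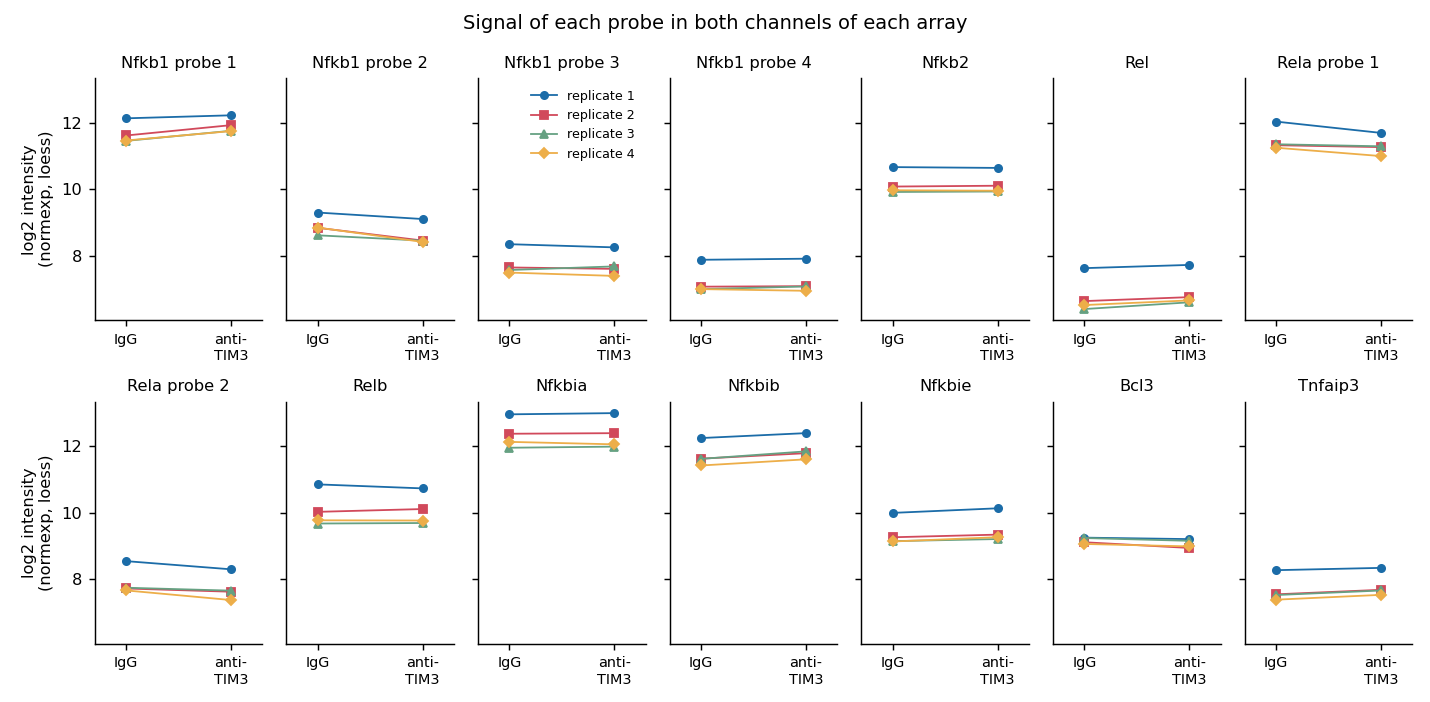
Log2 intensity of each NF-kB probe in the IgG and anti-TIM3 channels, after background correction and loess, with 1 line for each array. Replicate 1 was the brightest array at every probe, with the least margin at Bcl3, and the slope of each line is that array's log2 ratio.

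Of the classical inhibitors, Nfkbib was called and Nfkbia and Nfkbie were not. Nfkbia encodes IkB-alpha, the inhibitor that NF-kB itself induces fastest, and its processed signals were 5829, 4653, 3820 and 4407 in the IgG channels and 6099, 4781, 3910 and 4194 in the anti-TIM3 channels. Replicates 1 to 3 were slightly higher after anti-TIM3 and replicate 4 was lower. The log2 ratios were 0.04, 0.02, 0.03 and -0.07, with a mean of 0.00 and a 95% confidence interval from -0.08 to 0.08 (limma, adjusted p = 0.952). That interval is of the loess fit. With median centring the mean was 0.36, against a median of 0.15 over all tested probes (limma, adjusted p = 0.749). With trends on intensity and base counts removed it was 0.08 (limma, adjusted p = 0.104).

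Nfkbib, which encodes IkB-beta, had processed signals of 3425, 2639, 2883 and 2626 in the IgG channels and 3948, 2964, 3351 and 2998 in the anti-TIM3 channels. The anti-TIM3 channel was higher on each array, while the ranges overlapped. The log2 ratios were 0.15, 0.16, 0.22 and 0.18 (mean 0.18 ± 0.03, SD, n = 4; limma, adjusted p = 0.00611), or 1.13-fold. This was the least variable of the called probes, and its call held without each replicate. Nfkbib exceeded Nfkbia on all 4 arrays, by 0.18 ± 0.06 (exact sign-flip permutation test, p = 0.125, adjusted 0.15). That p is the smallest that 4 arrays allow, so the test could not pass and does not decide whether these inhibitors differ.

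Nfkbie, which encodes IkB-epsilon, had log2 ratios of 0.14, 0.08, 0.06 and 0.13, all above 0. The mean of 0.10 ± 0.04 (SD, n = 4) missed the threshold (limma, adjusted p = 0.0523). It passed where probes had to be well above background in both channels of all 4 arrays (limma, adjusted p = 0.0438). Nfkbib exceeded it on all 4 arrays, by 0.08 ± 0.06 (exact sign-flip permutation test, p = 0.125, adjusted 0.15). This test could not pass with 4 arrays either.

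Bcl3 encodes a nuclear IkB protein that binds p50 and p52 dimers and can activate transcription with them. Its log2 ratios were -0.04, -0.17, -0.08 and -0.07, below 0 on all arrays, and the mean of -0.09 ± 0.05 (SD, n = 4) missed the threshold (limma, adjusted p = 0.0823). The processed signals were 270, 350, 430 and 388 in the IgG channels and 261, 288, 383 and 359 in the anti-TIM3 channels, lowest in replicate 1 in both on this scale. After background correction and loess, the IgG log2 intensity of replicate 1 stood 0.11 above the mean of the other arrays at Bcl3. At the other 13 NF-kB probes that gap was 0.53 to 1.11, and its median over tested probes was 0.84. Replicate 1 is a single array, so the gap at Bcl3 has no replicate check.

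Tnfaip3 encodes A20, a ubiquitin-editing enzyme that shuts off signalling to IKK. Its log2 ratios were 0.07, 0.14, 0.14 and 0.14 (mean 0.12 ± 0.04, SD, n = 4; limma, adjusted p = 0.0285), with replicate 1 the lowest. Its processed signals were 111, 100.3, 114 and 89.0 in the IgG channels and 117, 102, 116 and 105 in the anti-TIM3 channels. Each array was higher after anti-TIM3, with wide overlap between the channels. The call was lost without replicate 2, 3 or 4 (limma, adjusted p = 0.0998, 0.0978 and 0.0959) and in the deposited ratios (adjusted p = 0.232).

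**Figure D4:**
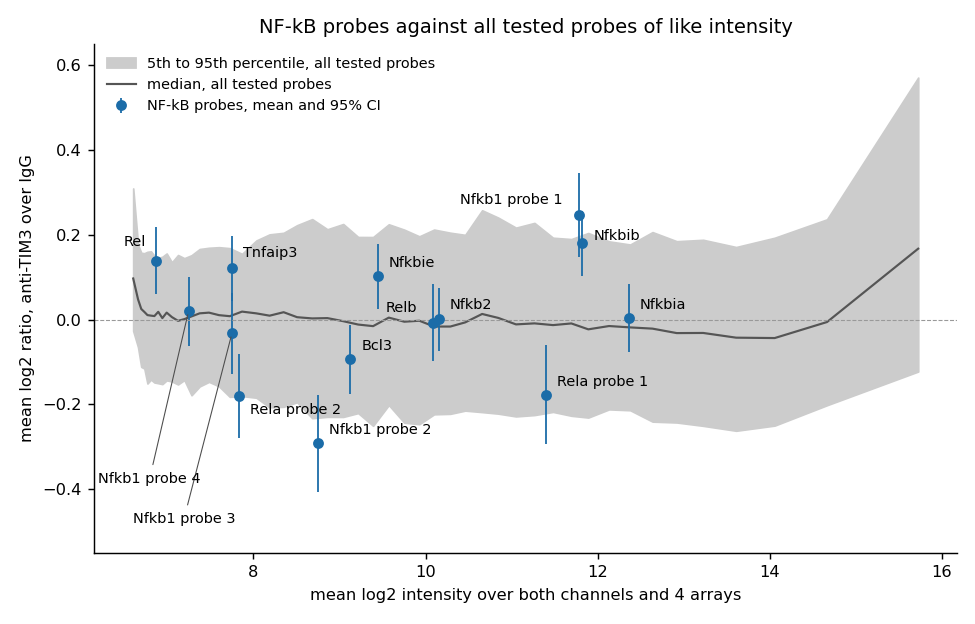
Mean log2 ratio of each NF-kB probe with its 95% confidence interval, against its mean log2 intensity over both channels and 4 arrays; the line is the median and the band the 5th to 95th percentile of all 26545 tested probes in bins of intensity. Nfkb1 probe 1 lies above the band and Nfkb1 probe 2 below it, Rela probe 2 lies at its lower edge, and the remaining probes lie within it.

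The next question was how the kB motif, the decameric site that NF-kB dimers bind, is placed at these genes. RefSeq promoters (GRCm38.p6, 250 bases before to 50 after the start) were listed for 8 of the 10 genes, without Nfkb1 and Relb. The motif was searched on both strands, with overlapping matches kept. It was found in 8.46% of all 32851 promoters, and in those of 9.55% of genes. Of the 8 genes, 6 had it (Bcl3, Nfkb2, Nfkbia, Nfkbie, Rel and Tnfaip3), and Nfkbib and Rela did not. Those with the motif hold 2 called genes, Rel and Tnfaip3, and 4 that were not called, against 28% of all named genes called. Rel entered the test only through the anti-TIM3 channel. Of the genes without the motif, Nfkbib was higher and Rela was lower. A link between motif and ratio was not tested. The last 130 bases before the start are shown for 4 genes, 2 called and 2 not, on the strand of the gene and with the motif in capitals.
Rel: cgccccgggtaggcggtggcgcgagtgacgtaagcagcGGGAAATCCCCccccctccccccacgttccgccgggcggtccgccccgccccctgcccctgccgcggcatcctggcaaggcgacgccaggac
Tnfaip3: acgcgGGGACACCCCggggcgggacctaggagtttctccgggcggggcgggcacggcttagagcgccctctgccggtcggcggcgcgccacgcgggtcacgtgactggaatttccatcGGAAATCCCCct
Nfkbia: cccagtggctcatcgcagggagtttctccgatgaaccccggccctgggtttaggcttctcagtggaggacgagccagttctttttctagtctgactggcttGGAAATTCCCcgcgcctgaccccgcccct
Nfkb2: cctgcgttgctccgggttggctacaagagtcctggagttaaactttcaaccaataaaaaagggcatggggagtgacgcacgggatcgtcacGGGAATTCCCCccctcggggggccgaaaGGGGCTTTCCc

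These windows lie at chr11:23770970-23771099, chr10:19015411-19015540, chr12:55492648-55492777 and chr19:46304607-46304736 (GRCm38.p6). Counted from the start of the promoter shown, the motif begins at -92 in Rel and at -29 in Nfkbia. In Tnfaip3 it begins at -125 and again at -12, and in Nfkb2 at -39 and again at -11, with overlapping matches at the Rel position and the first Nfkb2 position. Nfkb2 has 3 listed promoters, and those not shown had matches at -236 and 11 in the second and at -225 in the third. A match shows only that these letters are present.

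Other genes of the pathway were taken from 5 lists, each gene by its brightest tested probe. Among ligands of receptors upstream of NF-kB, 6 of 11 genes were tested, 1 was higher and 0 were lower, with a median log2 ratio of 0.07. The one was Tnfsf13b, which encodes the B-cell cytokine BAFF (0.13 ± 0.09, SD, n = 4; limma, adjusted p = 0.0479). Of 20 receptors, 16 were tested, 1 was higher and 2 were lower (median 0.02). Tlr9, a receptor for DNA, was higher (0.12). Tnfrsf12a, the TWEAK receptor, was lower (-0.18), although its replicate 4 stood at 0.05. Tnfrsf11a, the receptor RANK, passed as lower, but it was well above background in the IgG channel of 0 arrays and the anti-TIM3 channel of 3, so no size is given.

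Among 39 IKK kinases, adaptors and IkB ubiquitin ligase genes, all tested, 3 were higher and 3 lower (median 0.01). Malt1, a protease of the CARD-BCL10 complex, had the largest ratio, with 0.22, 0.31, 0.23 and 0.36 (mean 0.28 ± 0.07, SD, n = 4; limma, adjusted p = 0.00179), and its other probe had 0.05 (adjusted p = 0.321). Ube2v1, a partner in building the ubiquitin chains that activate IKK, was lower at each of 3 probes (-0.22, -0.30 and -0.39). Ripk1, a kinase of the TNF receptor complex, was higher (0.18) at its brightest probe, with replicate 1 at -0.03 and the other arrays at 0.22 to 0.26, and was not called at 2 others (-0.03 and -0.04). Ticam1, the adaptor TRIF, was lower at both of its probes (-0.16 and -0.14). Ikbkg, the regulatory IKK subunit NEMO, was named after its values were seen: its brightest probe had 0.00 (adjusted p = 0.957), and 2 dimmer probes had 0.17 and 0.13 and passed (limma, adjusted p = 0.0075 and 0.0311). A further Ikbkg probe passed as higher but was not well above background in the IgG channel of any array. Of the 30 other tested probes of this list, 6 were higher and 5 were lower, against 27.8% of all tested probes called. Among those higher, a probe each of Fbxw11, Ikbkg and Tank was not well above background in the IgG channel of any array.

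Of 18 tested IkB relatives and other negative regulators, 1 was higher and 0 were lower (median -0.02). It was Itch, a ubiquitin ligase that works with A20 (0.12 ± 0.07, SD, n = 4; limma, adjusted p = 0.0418). The count was 0 higher and 1 lower with an offset of 10 and with no filter on dim probes. Removing the filter leaves each ratio unchanged, so the lower gene there was not Itch. These counts do not name the gene. Of the list's 14 other tested probes 2 were higher and 2 were lower, against 27.8% of all tested probes called. Of 35 NF-kB target genes outside the family, 20 were tested, 4 were higher and 0 were lower (median 0.05). They were the chemokine genes Cxcl10 (0.20) and Cxcl1 (0.16), the survival gene Bcl2l1 (0.18) and Plau, which encodes urokinase. Plau was well above background in the IgG channel of 0 arrays, so no size is given. Of the 7 other tested probes of these genes 2 were called, against 27.8% of all tested probes. Both were lower: Bcl2l1 (-0.29) and, named after its values were seen, Irf1, which encodes an interferon regulatory factor. That Irf1 probe had -0.39 (limma, adjusted p = 0.000798), more than any other tested target probe, while the brightest Irf1 probe had 0.03 (adjusted p = 0.582). Target counts were 3 higher and 1 lower with the dimmest probe for each gene, with no filter or with trends removed, and 4 higher and 1 lower without replicate 1. In each of the 5 lists the share called was below the 28% of all named genes, from 5.56% of the negative regulators to 20% of the targets. This did not hold in every setting. The deposited ratios called 6 of 20 targets and 2 of 6 ligands, against 19.8% of all tested probes. They called 5 of 39 IKK and adaptor genes, 2 of 18 negative regulators and 2 of 16 receptors. Counts rested on single arrays: without replicate 4, 3 IKK and adaptor genes and 1 target gene were called, and without replicate 2, 2 target genes and 0 receptors were. Of all tested probes, 23%, 17.4%, 19.9% and 15.9% were called without replicates 1, 2, 3 and 4 in turn. Without replicate 1 or 3, 1 receptor was called. The ligand call was lost without replicate 2, 3 or 4, and that of the negative regulators without replicate 2 or 4.

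**Figure D5:**
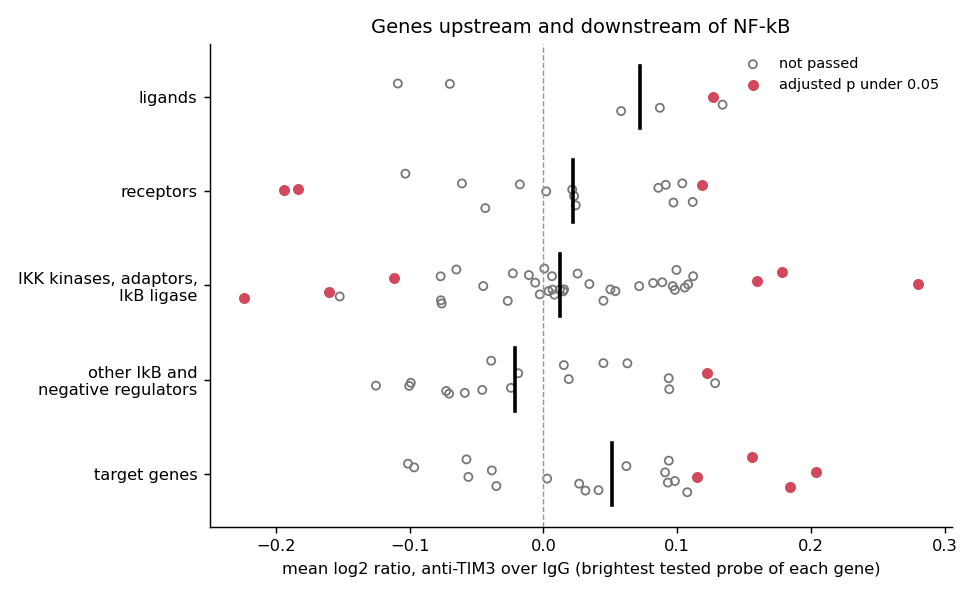
Mean log2 ratio of anti-TIM3 over IgG for each tested gene of 5 lists around NF-kB, by its brightest tested probe, with filled points for an adjusted p under 0.05 and the list median as a bar. List medians lie between -0.02 and 0.07, and Malt1 (0.28) lies farthest to the right.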

How the data were processed

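For each spot and channel the deposited scanner files give the intensity on a linear scale, processed signals, a log10 ratio of Cy5 over Cy3 and a p-value of that ratio, which the authors made with Agilent Feature Extraction (9.5.1.1 in the file headers, 9 in the submitters' processing notes). Processed signals were background-corrected and dye-normalised, per the file headers. The deposited value table holds the same log10 ratios.

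From the mean signals and median local backgrounds, normexp (offset 50) and loess within each array gave log2 ratios. Outlier spots were left out and spots averaged per probe. A probe entered the test if 3 or more arrays had it well above background in the IgG or the anti-TIM3 channel. Its ratios were compared with 0 by limma (3.58.1, R 4.3.3), with Benjamini-Hochberg adjustment over all 26545. Adjusted p-values are from this fit unless said otherwise. The arrays shared a slide and a scan, so neither could be a block, and their number limits the precision. The steps were tested on simulated data.

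The members and lists were chosen with earlier results of these data known. Named were all member probes, up to 4 called genes of each list by size of ratio, the brightest markers, and Havcr2. Alternatives are in the closing section.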

Additional observations from a re-analysis of the deposited data

Results flagged for a closer look

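At 2 of the 14 probes 1 array stood far from the other 3. At Nfkb1 probe 1 the gap of replicate 1 to its nearest neighbour was 0.874 of the range over the 4 arrays, and at Tnfaip3 it was 0.876, both above Dixon's 95% critical value for 4 samples. In both cases replicate 1 had the lowest log2 ratio, 0.09 at Nfkb1 probe 1 and 0.07 at Tnfaip3. Chance flags about 1 in 20 such groups.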

How the results depend on the processing

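All 7 NF-kB calls were lost under 2 of the alternatives run, median centring and separate channels. With each array centred on its median, 0 probes of the array were called by limma (without adjustment, 968 were higher and 38 lower at p under 0.05), 0 of the 14 NF-kB probes and 0 genes of each list, and Rela probe 1 turned to 0.13. With channels fitted separately and no pairing (no replicate block), 576 probes were called (without adjustment, 2446 were higher and 2421 lower), 0 of the NF-kB probes and 0 genes of each list. The deposited ratios called 4 of the 14 NF-kB probes, 2 negative regulators, 2 ligands and 6 targets, against 19.8% of all tested probes. An offset of 10 called 1 receptor and 0 ligands. With an offset of 10, and also with no filter, 1 negative regulator was called, and it was lower. With no filter 1 ligand was called, and it too was lower. Removing the filter leaves each ratio unchanged, so the genes called lower there were not Itch and Tnfsf13b. The filter on both channels of all arrays called 2 negative regulators and 0 ligands. Trends removed on intensity and base counts called 10 IKK and adaptor genes, 3 negative regulators and 0 ligands, and the dimmest probe for each gene called 3 negative regulators. With each replicate left out in turn, 4222 to 6110 probes were called, 3 to 5 NF-kB probes, 3 to 7 IKK and adaptor genes, 0 to 1 negative regulators, 0 to 2 receptors, 0 to 1 ligands and 1 to 5 targets; the fewest NF-kB probes were called without replicate 4. The cause of these changes was not tested. Signal over background limits Rel most, since its IgG channel was not well above background.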
